A study of Mus musculus with 11 samples.

Results

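The ribosome biogenesis genes described here are 36 mouse genes for nucleolar proteins, RNA polymerase I, the small nucleolar ribonucleoprotein particles (snoRNPs), the processing factors of both ribosomal subunits and 3 growth-linked metabolic enzymes. They were taken from a list of gene names, chosen with earlier results of these data known. Each gene is represented by the probe set annotated to it alone that was brightest over all arrays. All 36 had such a probe set and passed the filter on dim genes, among 18194 genes with a probe set and 13710 genes kept for testing. RNA from bulk skin of mice was hybridised to 11 one-colour arrays that prime from the 3′ end. The mice had received vehicle (3 arrays, numbered 1, 3 and 4) or ABBV-075, an inhibitor of the BET family of bromodomain proteins that bind acetylated histones, at 1 mg/kg. Treated skin was taken at 6 h (4 arrays, numbered 1, 2, 3 and 5) or at 24 h (4 arrays, numbered 1 to 4) after dosing. The labels give no strain, genotype, age or sex, no composition of the vehicle and no collection time for the vehicle mice. The series counts 3 vehicle mice and 4 mice in the dosing group, which matches 1 array per mouse at each time, without saying whether the same mice gave skin at 6 h and 24 h.

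A ribosome begins in the nucleolus, where RNA polymerase I copies the ribosomal DNA into a long precursor RNA. Box C/D and box H/ACA snoRNPs modify that precursor, and large assemblies of processing factors cut and fold it into the RNAs of the small and the large subunit. Many of these genes are known as targets of the transcription factor Myc, whose own gene is lowered by BET inhibitors in many tumour cells, and dividing cells, such as those of the basal epidermis and the hair follicle, make ribosomes at a high rate.

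Promoter sequences, 250 bases before to 50 bases after the annotated start, were found for 30 of the 36 members in RefSeq (GRCm38.p6) and were searched for CACGTG, the E-box that Myc and its partner Max bind best, which reads the same on both strands. It was present in 7 of the 30 members (23.3%), namely Mybbp1a, Rrn3, Wdr43, Utp20, Tsr1, Pes1 and Nop2, against 1957 of 27025 promoters of all genes (7.24%) and 7.90% of those of protein-coding genes. TATAAA, searched on both strands, was present in 3 of 30 members and in 14.2% of all promoters. Such a match is a description of the letters in this window. Promoters with and without an E-box are shown for 4 members, written 5′ to 3′ on the strand of the gene with the E-box in capitals. Rrn3 had the most matches (2), Wdr43 had 1 match and stood among the members farthest above vehicle at 6 h, Ddx21 stood there with none, and Rrp9 was farthest below vehicle at both times, also with none.
Rrn3, chr16:13780449-13780748, plus strand: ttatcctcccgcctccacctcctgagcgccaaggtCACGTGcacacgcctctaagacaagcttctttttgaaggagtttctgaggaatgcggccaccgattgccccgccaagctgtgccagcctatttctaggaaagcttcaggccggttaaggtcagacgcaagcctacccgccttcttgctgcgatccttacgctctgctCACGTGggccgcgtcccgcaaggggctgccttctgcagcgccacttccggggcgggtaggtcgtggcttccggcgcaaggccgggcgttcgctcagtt
Wdr43, chr17:71615965-71616264, plus strand: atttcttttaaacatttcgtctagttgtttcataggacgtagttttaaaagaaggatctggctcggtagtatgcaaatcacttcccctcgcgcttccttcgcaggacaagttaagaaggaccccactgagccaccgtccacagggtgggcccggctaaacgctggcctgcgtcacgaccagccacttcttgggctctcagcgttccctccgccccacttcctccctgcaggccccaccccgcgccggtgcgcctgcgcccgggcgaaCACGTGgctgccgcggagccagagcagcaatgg
Ddx21, chr10:62602249-62602548, minus strand: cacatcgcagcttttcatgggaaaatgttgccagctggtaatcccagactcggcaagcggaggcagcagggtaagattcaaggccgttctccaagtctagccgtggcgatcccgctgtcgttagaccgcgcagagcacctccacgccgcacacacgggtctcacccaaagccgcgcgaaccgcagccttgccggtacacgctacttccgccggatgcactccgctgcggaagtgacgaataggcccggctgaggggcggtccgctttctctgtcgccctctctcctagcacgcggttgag
Rrp9, chr9:106477059-106477358, plus strand: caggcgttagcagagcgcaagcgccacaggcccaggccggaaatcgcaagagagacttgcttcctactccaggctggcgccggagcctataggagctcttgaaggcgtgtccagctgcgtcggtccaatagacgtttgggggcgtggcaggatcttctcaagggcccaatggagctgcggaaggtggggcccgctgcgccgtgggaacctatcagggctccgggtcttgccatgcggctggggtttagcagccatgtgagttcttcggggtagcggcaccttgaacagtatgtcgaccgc
GC content was 61.7% in the Rrn3 window, 59.7% in that of Wdr43, 62.3% in that of Ddx21 and 62.7% in that of Rrp9, and its median was 59.7% over the 30 members and 56.3% over protein-coding genes. The letters CG, which CACGTG contains, had a median count per window of 21.5 over the members and 13 over protein-coding genes. The part of this in the share of members with an E-box was not tested.

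The arrays of treated skin were less uniform than the vehicle arrays. The trimmed mean intensity ranged from 205 to 244 on the vehicle arrays, from 82.8 to 244 on the 6 h arrays and from 116 to 183 on the 24 h arrays. The ratio of the 5′ to the 3′ probe set of actin, which falls as RNA breaks or is copied incompletely, was 0.484 to 0.593 in vehicle, 0.0725 to 0.425 at 6 h (lowest in replicate 5) and 0.198 to 0.529 at 24 h (lowest in replicate 2). Markers of skin were present: basal keratinocyte genes (Krt5 at 11.65 in vehicle, on the log2 scale), suprabasal genes (Krt10 at 13.52) and fibroblast genes (Col1a1 at 12.53). All levels below are log2(intensity + 16) after quantile normalization, which gives every array the same distribution, so a change in total RNA would not appear in them.

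No member passed the test at either time, and their typical distance from vehicle was small. At 6 h, 25 of the 36 members (69.4%) had a mean above vehicle, where 50.4% of all tested genes did, and the median member difference was 0.18 log2 units (0.0037 over all genes). At 24 h, 25 members again had a positive difference (47.6% of all genes), with a median of 0.094 (−0.020 over all genes). With the replicate number as a block, 33 members were above vehicle at 6 h (median 0.29) and 21 at 24 h (median 0.088). Of all genes, 50.7% and 47.7% were. Number 5 occurs only on 6 h replicate 5, so this block in effect leaves that array out. Leaving it out without a block gave 31 members at 6 h (median 0.26). Whether the numbers mark pairs is not known, so the block adds no separate reading. The 2 comparisons share the vehicle arrays. In bulk skin, fewer cells of a type and less RNA per cell cannot be told apart.

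In limma, with Benjamini-Hochberg adjustment over all 13710 genes, 0 members were called at an adjusted p under 0.05 in any of the 3 comparisons, where 0% of all genes were called too. At 6 h, an unadjusted two-sided p under 0.05 was reached by 4 members above vehicle (11.1%; 8.02% of all genes) and by 1 below (2.78%; 8.05% of all genes). All 6 h arrays lay above all vehicle arrays in 7 members (19.4%; 9.77% of all genes) and below them in 0 (8.77% of all genes). At 24 h the unadjusted threshold was reached by 0 members above vehicle (3.16% of all genes) and by 2 below (5.56%; 4.47% of all genes), and no member had all 24 h arrays above all vehicle arrays (5.09% of all genes), while 2 had them all below (5.56%; 6.02% of all genes). The shares at 24 h are near those of all genes. When limma weighted arrays by their fit, 7 members (Npm1, Ddx21, Nop56, Nop58, Wdr43, Rrs1 and Cad) were called above vehicle at 6 h and Rrp9 below, where 18.2% of all genes were called. At 24 h, 0 members were called (0.43% of all genes). Under these weights 15 members were above vehicle at 24 h and the 24 h member median was −0.026. The weights were lowest for 24 h replicate 4 (0.270) and 6 h replicate 5 (0.299) and highest for vehicle replicate 3 (4.85). The 95% interval of the difference lay within 1 log2 unit of 0 for 27 members at 6 h and 28 at 24 h, which bounds their shift to less than a doubling or a halving, and on the chosen probe sets every member except Rrp9 had a difference of under 1 at both times (a dimmer probe set of Pes1 differed by −1.02 at each).

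The size of the member medians after quantile normalization rested on single arrays. Without 6 h replicate 1 the 6 h median was 0.096, without 6 h replicate 2 it was 0.12, and without 6 h replicate 5 it was 0.26. The 24 h median was 0.00099 without 24 h replicate 4, 0.046 without 24 h replicate 2, 0.047 without vehicle replicate 4 and 0.15 without 24 h replicate 3. With all arrays but without probe sets marked as possibly cross-hybridising, the medians were 0.097 at 6 h and 0.036 at 24 h. Of the 34 members then left, 21 and 20 were above vehicle, where 48% and 46.2% of all genes were. The direction also depends on how arrays are put on one scale: on the intensities as deposited, 0 of 36 members were above vehicle at 6 h and 1 of 36 at 24 h, where the median of all genes was itself −0.68 and −0.62. Measured from the median gene, 22 members were above it at each time on that scale. Under all 4 normalizations 21 members lay above the median gene at 6 h and 11 below it, and at 24 h 20 lay above and 9 below.

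**Figure D1:**
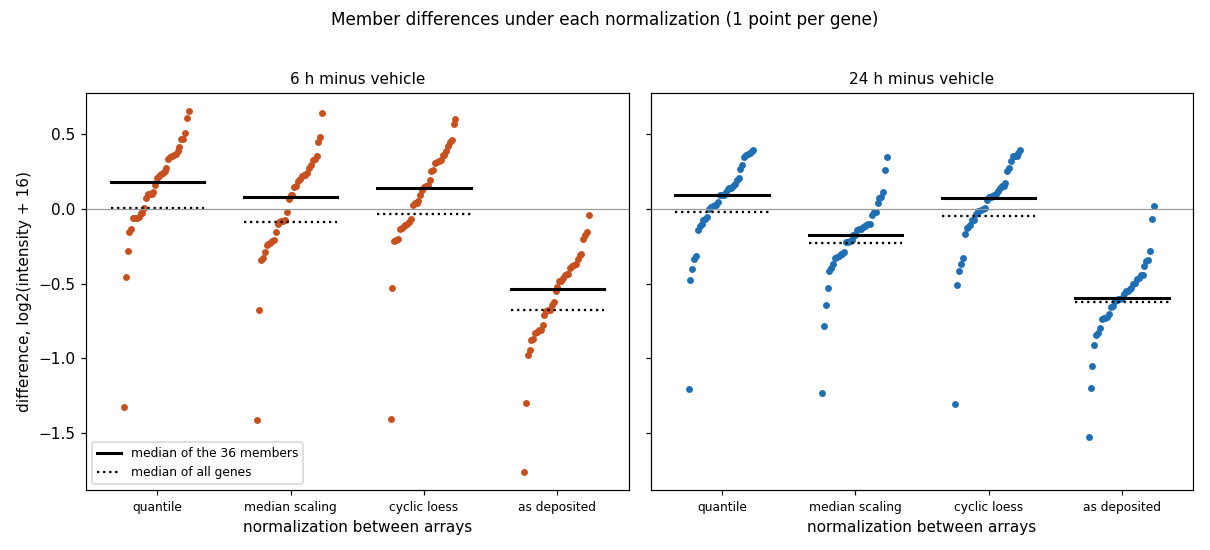
Difference from vehicle (y axis, log2(intensity + 16)) at 6 h (left) and 24 h (right) under 4 ways of putting the arrays on one scale (x axis), 1 point per member, with the median of the 36 members as a solid bar and that of all genes as a dotted bar. On the intensities as deposited both bars lie well below 0, at −0.54 and −0.68 for 6 h, while the solid bar lies above the dotted one in every column.

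**Figure D2:**
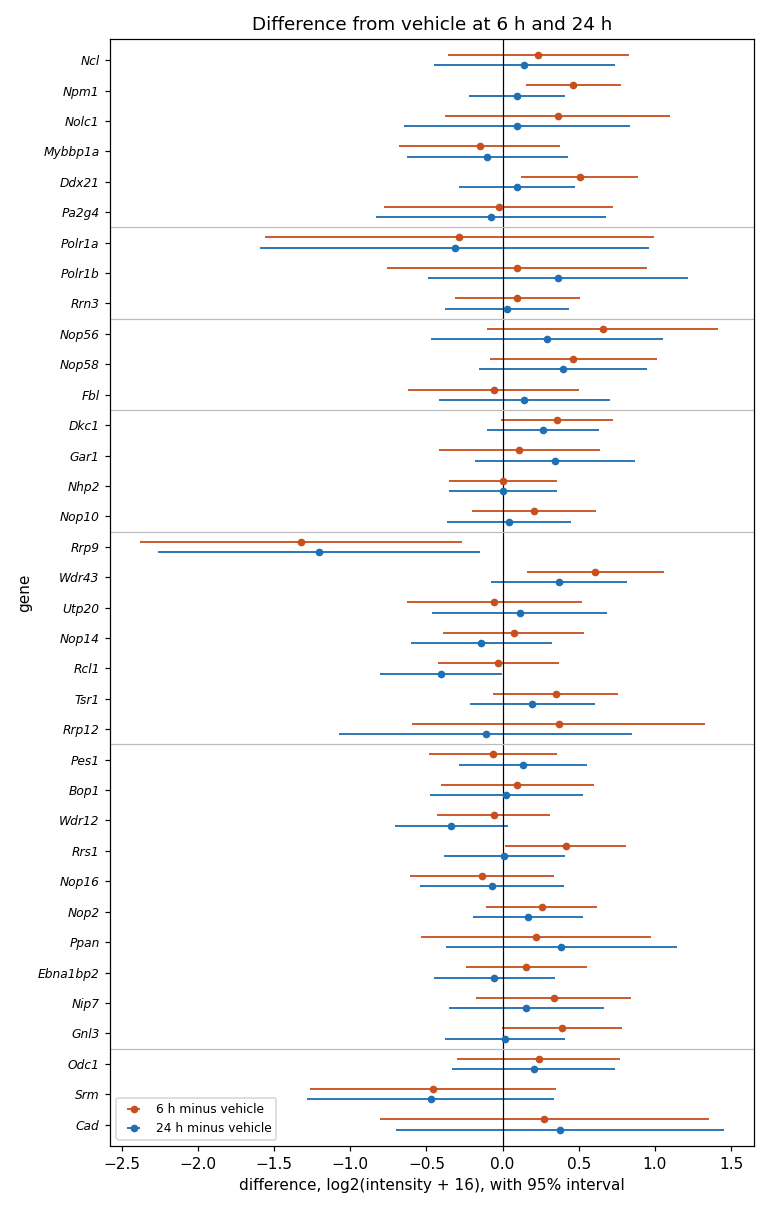
Difference from vehicle with its 95% interval from the limma fit (x axis, log2 units) for each of the 36 members (y axis, grouped by role) at 6 h and 24 h. Most intervals span 0, and Rrp9 stands farthest below it, at −1.33 at 6 h and −1.21 at 24 h.

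Among the nucleolar proteins, Npm1, a histone and ribosome chaperone (nucleophosmin), had the lowest p of the members at 6 h. Its level was 11.94, 11.88 and 11.91 on the vehicle arrays, 12.44, 12.31, 12.28 and 12.46 at 6 h, and 11.91, 12.08, 11.88 and 12.14 at 24 h. The 6 h arrays lay above all vehicle and all 24 h arrays, and the 24 h arrays overlapped vehicle. The 6 h difference was 0.46 ± 0.14 (SE, 4 against 3 arrays; 1.38-fold; limma adjusted p = 0.190), and the difference between 24 h and 6 h was −0.37 ± 0.13 (limma adjusted p = 0.407). A second Npm1 probe set had a 6 h difference of 0.21.

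Ddx21, an RNA helicase that acts in both polymerase I and polymerase II transcription, was at 8.54, 8.63 and 8.56 in vehicle, 9.23, 9.07, 9.24 and 8.79 at 6 h, and 8.53, 8.84, 8.45 and 8.86 at 24 h. All 6 h arrays were above vehicle, replicate 5 by the least, and the 24 h arrays lay on both sides of it. The differences were 0.51 ± 0.17 at 6 h (SE; 1.42-fold; limma adjusted p = 0.227) and 0.094 ± 0.17 at 24 h. Nucleolin (Ncl), an RNA-binding scaffold of the nucleolus, was at 10.78, 10.90 and 10.68 in vehicle, 11.41, 11.34, 10.90 and 10.42 at 6 h, and 10.68, 10.95, 10.62 and 11.46 at 24 h, so that both treated groups spread around vehicle (0.23 ± 0.27 and 0.14 ± 0.27). Its 6 h difference was 0.10 without 6 h replicate 1 and 0.43 without 6 h replicate 5. Nolc1, a chaperone of snoRNPs, had differences of 0.36 (0.21 without 6 h replicate 1, 0.63 without 6 h replicate 5) and 0.095, Mybbp1a, a nucleolar protein that binds the precursor RNA, of −0.15 and −0.10, and Pa2g4, which binds ribosomes and precursor RNA, of −0.027 and −0.076. On the chosen probe sets, 4 of the 6 nucleolar genes had positive differences at each time, with medians of 0.30 and 0.094. Some signs depend on that choice. At 6 h the other usable probe sets of Pa2g4 gave 0.28, 0.46, 0.16 and 0.0011, and those of Nolc1 gave −0.26 and −0.20.

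The genes of RNA polymerase I showed no shared direction that exceeded the spread between arrays. Polr1a, the largest subunit, was at 5.88, 5.67 and 5.93 in vehicle, 6.24, 6.10, 5.81 and 4.00 at 6 h, and 5.41, 5.76, 4.24 and 6.62 at 24 h. The value of 4.00 is the floor of the scale, so this probe set gave no measurable signal on 6 h replicate 5, where another Polr1a probe set read 5.30. The 6 h difference was −0.28 ± 0.58, and 0.23 without that array. The probe set that read 5.30 gave 0.26 at 6 h and −0.071 at 24 h. A further usable probe set, also at 4.00 on 6 h replicate 5, gave −0.60 at 6 h and −0.90 at 24 h. Polr1b, the second largest subunit, differed by 0.097 ± 0.39 and 0.36 ± 0.39. Rrn3 (TIF-IA), the factor that makes the polymerase competent to start and whose promoter is shown above with its E-boxes, was at 7.30, 7.30 and 7.02 in vehicle, 7.56, 7.43, 7.36 and 6.85 at 6 h and 7.29, 7.26, 7.24 and 7.15 at 24 h. Its differences were 0.097 ± 0.19 and 0.028 ± 0.19, with a 95% interval of −0.31 to 0.51 at 6 h.

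The box C/D snoRNPs place methyl groups on ribosomal RNA, and 2 of the 3 members lay above vehicle at 6 h and 3 of 3 at 24 h (medians 0.46 and 0.29). Nop58, a core protein, was at 9.00, 8.89 and 8.76 in vehicle, 9.54, 9.50, 9.24 and 9.11 at 6 h, and 9.20, 9.76, 8.62 and 9.55 at 24 h. Its 6 h arrays were all above vehicle and its 24 h arrays, replicate 3 apart, were too (0.46 ± 0.25 and 0.40 ± 0.25; limma adjusted p = 0.391 and 0.704). Nop56, its partner, had the largest positive 6 h difference of the members, 0.66 ± 0.35 (limma adjusted p = 0.379). Nop56 was at 8.18, 8.14 and 8.27 in vehicle, 9.13, 9.13, 8.97 and 8.17 at 6 h, and 8.01, 8.93, 7.82 and 9.18 at 24 h. On this probe set both treated groups were split, with 6 h replicate 5 at the vehicle level and 24 h replicates 1 and 3 below it. A second probe set of Nop56 read 8.12 to 8.24 in vehicle and 8.97, 9.11, 8.79 and 8.84 at 6 h, so there all 6 h arrays, replicate 5 included, were above vehicle. The 24 h difference of the first was 0.29 ± 0.35, and 0.059 without 24 h replicate 4 and 0.51 without 24 h replicate 3. Fibrillarin (Fbl), the methyltransferase itself, differed by −0.059 ± 0.26 and 0.14 ± 0.26.

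The box H/ACA snoRNPs turn uridine into pseudouridine, and the 4 members had positive differences at both times, with medians of 0.16 and 0.15. Dkc1 (dyskerin), the enzyme, was at 8.55, 8.89 and 8.63 in vehicle, 9.06, 9.00, 9.03 and 9.11 at 6 h, and 8.98, 9.27, 8.75 and 8.84 at 24 h. The narrow 6 h group lay above vehicle, and the 24 h group overlapped it (0.36 ± 0.17 and 0.27 ± 0.17; limma adjusted p = 0.326 and 0.704). Gar1, which helps release the product, was at 7.97, 8.06 and 8.08 in vehicle, 8.50, 8.16, 8.05 and 7.88 at 6 h, and 8.07, 8.67, 7.94 and 8.84 at 24 h (0.11 ± 0.24 and 0.34 ± 0.24). The structural proteins Nhp2 and Nop10 had 6 h differences of 0.0025 ± 0.16 and 0.20 ± 0.19.

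Among the 7 small subunit factors, 4 had positive differences at 6 h and 3 at 24 h, and this group held the member farthest above zero after Nop56 and the member farthest below. Wdr43, a subunit of the complex that joins polymerase I transcription to early processing, was at 7.84, 7.85 and 7.70 in vehicle, 8.05, 8.67, 8.48 and 8.43 at 6 h, and 7.74, 8.45, 8.20 and 8.28 at 24 h. All 6 h arrays were above vehicle, and so were the 24 h arrays other than replicate 1. The differences were 0.61 ± 0.20 at 6 h (1.53-fold; 95% interval 0.16 to 1.06; limma adjusted p = 0.214) and 0.37 ± 0.20 at 24 h (limma adjusted p = 0.680).

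Rrp9, a protein of the U3 snoRNP that guides the first cuts, was at 6.35, 6.43 and 6.02 in vehicle, 5.35, 4.14, 6.27 and 4.00 at 6 h, and 5.69, 5.10, 4.67 and 4.79 at 24 h. The 24 h arrays all lay below vehicle, while at 6 h replicate 3 sat within the vehicle range and replicate 5 was at the floor. Rrp9 differed by −1.33 ± 0.48 at 6 h (limma adjusted p = 0.237) and by −1.21 ± 0.48 at 24 h (limma adjusted p = 0.599). With 2 of the 6 h arrays at or near the floor, the size of the 6 h difference depends on the pseudocount (−0.60 with 64 and −2.17 with 4) and is no measure of a fold. Its only probe set was dim, with deposited intensities of 64.5 to 102 in vehicle and −31.7 to 44.1 after treatment, and on the intensities as deposited its limma adjusted p at 6 h was 0.032, where 853 genes were called lower and 2 higher.

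Rcl1, a factor of early small subunit cleavage that resembles RNA cyclases, was at 7.54, 7.52 and 7.83 in vehicle, 7.96, 7.55, 7.58 and 7.31 at 6 h, and 7.35, 7.25, 7.05 and 7.26 at 24 h. Its 24 h arrays all lay below vehicle, by −0.40 ± 0.18 (limma adjusted p = 0.647), and its 6 h arrays did not (−0.029 ± 0.18). Tsr1, a late assembly factor, differed by 0.35 ± 0.19 and 0.19 ± 0.19, and Rrp12, an export factor, by 0.37 ± 0.44 and −0.11 ± 0.44. Utp20 and Nop14, components of the early processome, had 6 h differences of −0.056 ± 0.26 and 0.071 ± 0.21.

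The 10 large subunit factors had 7 positive differences at each time, with medians of 0.19 and 0.020. Rrs1, which brings the 5S particle into the growing subunit, was at 8.78, 8.91 and 8.99 in vehicle, 9.48, 9.32, 9.11 and 9.32 at 6 h, and 8.70, 9.10, 8.64 and 9.17 at 24 h. All 6 h arrays were above vehicle and the 24 h arrays were on both sides, with differences of 0.41 ± 0.18 (limma adjusted p = 0.294) and 0.010 ± 0.18. This result belongs to 1 of its 2 probe sets: the other, whose name marks no cross-hybridisation, gave −0.12 at 6 h.

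Gnl3 (nucleostemin), a GTP-binding protein of proliferating and stem cells, was at 8.91, 9.09 and 9.06 in vehicle, 9.42, 9.42, 9.52 and 9.28 at 6 h, and 8.63, 9.34, 9.07 and 9.10 at 24 h. Its 6 h arrays lay above vehicle and its 24 h arrays around it (0.39 ± 0.18 and 0.016 ± 0.18; limma adjusted p = 0.317 and 0.987). Pes1, Bop1 and Wdr12 form 1 complex that matures the large subunit RNA, and their 6 h differences were −0.064 ± 0.19, 0.096 ± 0.23 and −0.060 ± 0.17. Wdr12 was also lower than vehicle in its 24 h mean, by −0.34 ± 0.17 (limma adjusted p = 0.658), while Pes1 differed by 0.13 ± 0.19 and Bop1 by 0.024 ± 0.23. The other usable probe set of Wdr12, a dimmer one, did not show this, with 0.14 at 24 h and 0.49 at 6 h. Of the remaining factors, Nip7 differed by 0.34 ± 0.23 at 6 h, the methyltransferase Nop2 by 0.25 ± 0.16, Ppan by 0.22 ± 0.34, Ebna1bp2 by 0.16 ± 0.18 and Nop16 by −0.14 ± 0.22.

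The metabolic enzymes did not share a direction. Odc1, the first enzyme of polyamine synthesis, differed by 0.24 ± 0.24 at 6 h and 0.20 ± 0.24 at 24 h, and spread from 9.42 to 10.30 in vehicle alone. Without vehicle replicate 1 its differences were −0.041 and −0.073. Spermidine synthase (Srm) was at 8.63, 8.22 and 8.48 in vehicle, 8.64, 8.18, 8.28 and 6.83 at 6 h, and 8.18, 7.80, 7.60 and 8.30 at 24 h, so that 6 h replicate 5 lay far below the others (−0.46 ± 0.37 and −0.47 ± 0.37), and the 6 h difference was −0.074 without it. Cad, which starts pyrimidine synthesis, was at 7.83, 6.54 and 7.45 in vehicle, 7.84, 7.98, 8.37 and 5.99 at 6 h, and 7.57, 7.51, 7.87 and 7.63 at 24 h. Its 6 h difference of 0.27 ± 0.49 holds 3 arrays at or above the highest vehicle array and 1 below all of them.

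**Figure D3:**
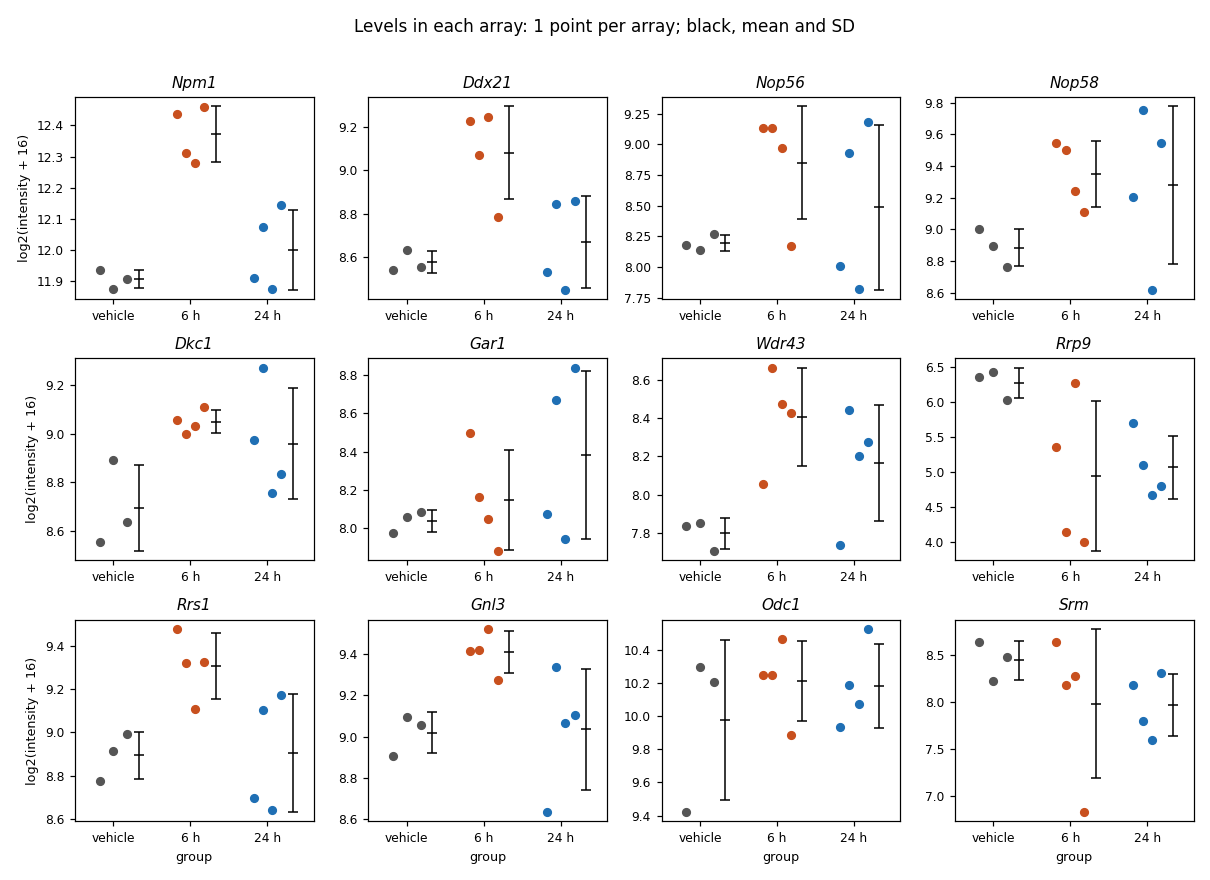
Level on each array (y axis, log2(intensity + 16); each panel has its own range) for selected members by group (x axis: vehicle, 6 h, 24 h), 1 point per array, with the group mean and SD. Npm1 and Wdr43 show all 6 h points above vehicle, and Rrp9 shows all 24 h points below it.

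Between 6 h and 24 h, 10 of 36 members (27.8%; 47.4% of all genes) were higher at 24 h, and the median member difference was −0.080 (−0.019 over all genes). limma called 0 members (0% of all genes), and an unadjusted two-sided p under 0.05 was reached by Ddx21, Gnl3, Npm1, Rcl1 and Rrs1 below (13.9%; 5.51% of all genes) and by 0 above (3.76% of all genes). Npm1 alone had all 24 h arrays below all 6 h arrays (2.78%; 3.54% of all genes), and 0 members had them all above (1.92% of all genes). For 23 members the 24 h mean was closer to vehicle than the 6 h mean. With the replicate number as a block, 4 members were higher at 24 h (49.1% of all genes) and the median was −0.23. Whether these numbers mark pairs is not known, and the block in effect leaves out 6 h replicate 5. This comparison too rested on single arrays: without 6 h replicate 5, 5 members were higher at 24 h and the median was −0.22, and without 24 h replicate 3, 18 were and the median was −0.0086.

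The member mean varied more between the arrays of a treated group than between group means. The mean of the 36 members was 8.23, 8.19 and 8.15 in vehicle (8.19 ± 0.043, SD, n = 3), 8.52, 8.40, 8.44 and 7.93 at 6 h (8.32 ± 0.26, SD, n = 4), and 8.12, 8.37, 7.96 and 8.45 at 24 h (8.22 ± 0.23, SD, n = 4). Replicate 5 was the low array of the 6 h group, replicates 1 and 3 were the low arrays of the 24 h group, and both treated groups overlapped vehicle. On 6 h replicate 5, 26 members had their lowest 6 h level (72.2%; 28.9% of all genes). On 24 h replicate 3, 21 members had their lowest 24 h level (58.3%; 19.4% of all genes), and on 24 h replicate 4, 19 had their highest (52.8%; 32.7% of all genes).

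**Figure D4:**
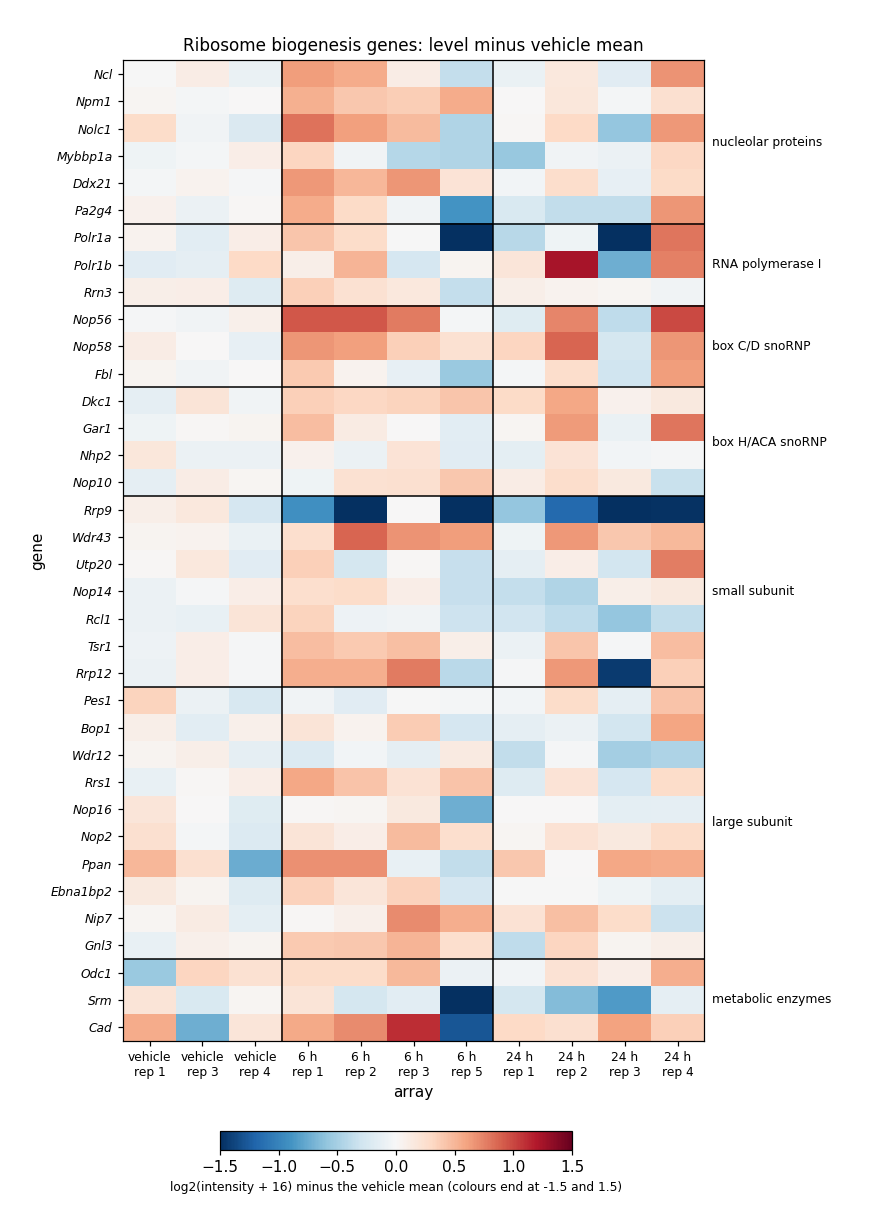
Level of each of the 36 members (rows, grouped by role) on each of the 11 arrays (columns, by group), as the difference from that gene's vehicle mean in log2 units (colour). The columns of 6 h replicate 5 and 24 h replicates 1 and 3 are mostly below 0, with 13, 13 and 11 members above the vehicle mean, against 32, 28 and 26 on the other 6 h arrays.

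As a description over 11 arrays of shared scale, the deviations of 2 members from their group means had a median correlation of 0.35 over 630 pairs, with 78.4% of pairs above 0, against 0.0020 and 50.1% over pairs of all genes. Nolc1 followed the mean of the other members most closely (r = 0.96), then Ddx21 and Polr1a (0.95 each), Nop56 and Fbl (0.93 each). Nip7 (−0.46), Nop10 (−0.63) and Wdr12 (−0.15) ran against it. Outside the list, the gene whose deviations were most like the member mean was Nol10, a small subunit factor (r = 0.99), followed by Atg2b, Adck2, Dgke and Bud23 (0.96 to 0.97).

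Some of these arrays also differed in RNA quality or cell type markers. The low array at 6 h, replicate 5, had the lowest actin ratio of all (0.0725). At 24 h the low arrays, replicates 1 and 3, had ratios of 0.529 and 0.475, and the high arrays, replicates 2 and 4, had 0.198 and 0.423. The same ratio for Gapdh was 0.698 to 0.911 in vehicle and 0.804 to 1.08 at 24 h (0.804 and 0.945 in replicates 2 and 4), and at 6 h it was 0.104 in replicate 5 and 0.684 to 0.711 in the others, so only 6 h replicate 5 was low on both. The mean of the 7 basal keratinocyte markers was 9.91 to 10.59 in vehicle, 9.92 to 11.52 at 6 h, with replicate 5 lowest, and 10.26 to 12.12 at 24 h, with replicate 4 highest. The mean of the 8 fibroblast markers was 12.44 to 12.55 in vehicle, 11.83 to 12.24 at 6 h and 10.56 to 12.44 at 24 h, with replicate 4 lowest. All 7 basal markers had positive differences and 0 of 8 fibroblast markers did, at both times (fibroblast medians −0.30 and −0.63). Other lists stood farther below vehicle: the median difference was −0.88 at 6 h and −0.75 at 24 h over 6 adipocyte markers, −0.60 and −0.84 over 7 macrophage and dendritic cell markers, and −0.77 and −1.05 over 5 mast cell markers, with 0 positive in each, and −0.70 and −0.68 over 7 endothelial markers, with 1 positive. The remaining lists were mixed. Hair shaft and matrix markers had 1 of 6 positive at 6 h (median −0.40) and 4 at 24 h (0.086). Melanocyte markers had 4 of 5 positive at each time (0.33 and 0.47). Suprabasal markers had 5 and 3 of 7 (0.27 and −0.085), and skeletal muscle markers 2 and 7 of 8 (−0.18 and 0.25). T cell markers had 2 and 3 of 4 (0.13 and 0.16), and sebocyte markers 1 of 2 each time (−0.0025 and 0.047). limma called no marker of these lists. The part of cell make-up in the member values was not tested. The 3 arrays with an actin ratio under 0.3 were 6 h replicates 3 and 5 and 24 h replicate 2. Leaving them out gave 31 members above vehicle at 6 h (median 0.29) and 22 at 24 h (0.046), where 50.1% and 47.9% of all genes were. The 6 h values then rest on replicates 1 and 2 alone, and replicate 1 had the highest member mean. The actin ratio as a covariate gave 31 (0.29) and 25 (0.095), where 50.4% and 47.6% of all genes were above vehicle.

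**Figure D5:**
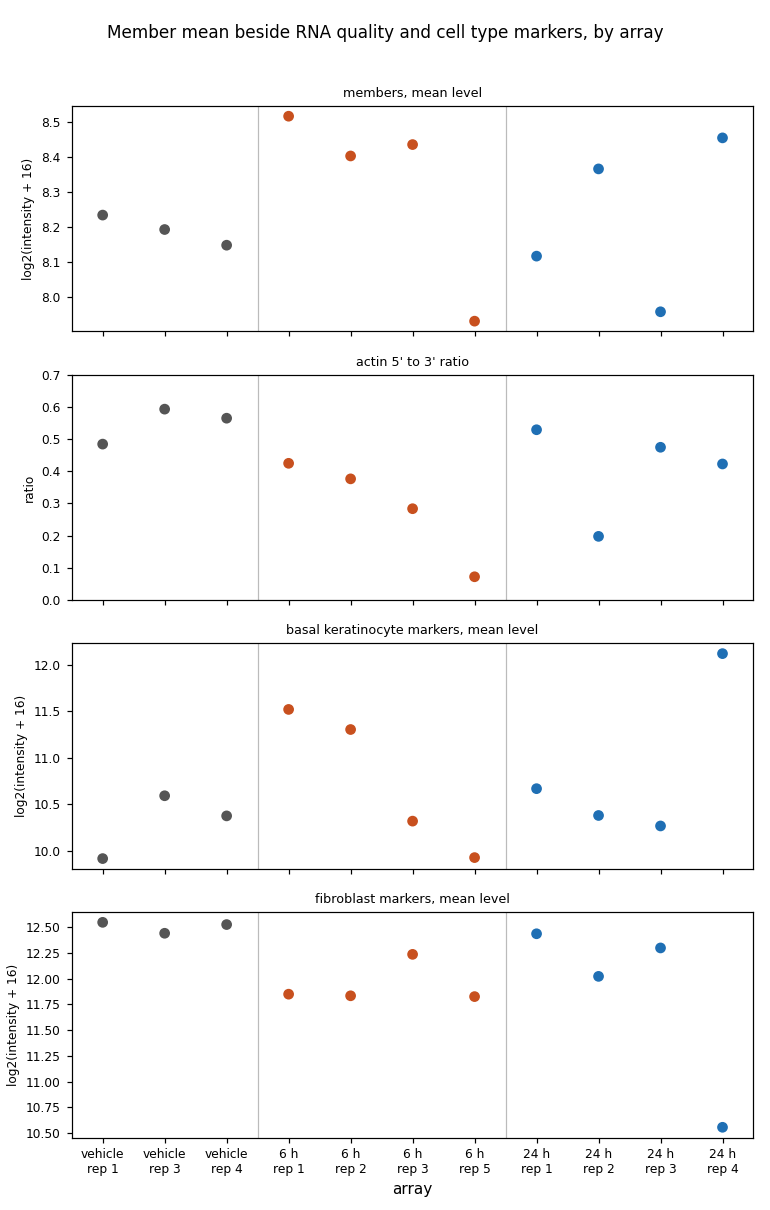
For each array, by group, the mean of the 36 members, the actin 5′ to 3′ ratio and the mean levels of basal keratinocyte and fibroblast markers (y axes, log2(intensity + 16) except for the ratio). The array with the lowest actin ratio, 6 h replicate 5 at 0.0725, also has the lowest member mean, 7.93.

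Several members had more than 1 usable probe set, which gives a second reading of the same arrays. Of 22 such members, all probe sets had the same sign in 15 at 6 h (12 positive, 3 negative), in 10 at 24 h (9 positive, 1 negative) and in 16 between 24 h and 6 h (3 positive, 13 negative). Ncl had 4 probe sets with 6 h differences of 0.23 to 0.83, Nop56 gave 0.66 and 0.75, and Wdr43 gave 0.61 and 0.51. Opposite signs more than 0.5 apart appeared at 6 h in Nolc1, Polr1a, Rrs1 and Wdr12, and between 24 h and 6 h in Ncl, Nolc1 and Odc1. Pes1 gave −0.064 at 6 h and 0.13 at 24 h from the brighter probe set and −1.02 at each time from the dimmer. On the dimmer, all treated arrays lay below all vehicle arrays. The probe sets thus differed in size at 6 h and in sign at 24 h, so the direction of Pes1 is not settled.

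Other genes of the pathway were read on the same 11 arrays. Their lists were chosen with earlier results of these data known, so they give no independent support. Over 6 lists of other ribosome biogenesis genes (109 tested of 117 listed), 77 had positive differences at 6 h (median 0.14) and 66 at 24 h (median 0.073), and 0 were called by limma. At 6 h, 20 of these 109 genes had all treated arrays above vehicle (9.77% of all genes) and 4 had all below (8.77% of all genes). At 24 h, 7 of the 109 had all above (5.09% of all genes) and 2 had all below (6.02% of all genes). By list, positive 6 h differences were found for 7 of 9 other polymerase I subunits and factors (median 0.38), 31 of 37 other small subunit factors (0.17), 23 of 36 other large subunit factors (0.13), 5 of 7 snoRNP assembly factors (0.20), 7 of 12 exosome subunits (0.16) and 4 of 8 RNase MRP and P subunits (−0.021). Polr1d, a subunit shared by polymerases I and III, differed by 0.58 at 6 h and 0.19 at 24 h, and Wdr75, a subunit of the same complex as Wdr43, by 0.73 and 0.18 (limma adjusted p = 0.147 at 6 h). Both stood near the upper end of their lists. At 6 h the other polymerase I genes ran from −0.20 to 0.60 and the other small subunit factors from −0.76 to 0.73. Cytosolic ribosomal proteins had 19 of 37 positive differences at 6 h (median 0.016) and 20 at 24 h (0.034), the Myc network 8 of 11 (0.16) and 5 of 11 (−0.086), and cell cycle genes 10 of 21 (−0.0090) and 7 of 21 (−0.21). None of these was called by limma.

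By promoter, the 7 members with an E-box had 4 positive differences at 6 h (median 0.097) and 6 at 24 h (0.13). The 23 members with a promoter but no E-box had 17 (0.20) and 15 (0.094).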

How the data were processed

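Skin RNA (200 ng per array) was amplified and hybridised per the labels' protocols. The authors deposited 1 linear intensity per probe set and array (45101 probe sets); the software, background correction and scaling behind them were not given in the sources used here, and 12.9% to 16.6% of the values per array were below 0. Probe sets were named through the platform annotation given with the data and RefSeq: 34958 had 1 gene, 932 several and 9211 none.

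The deposited intensities were quantile normalized, floored at 0 and put on the log2(intensity + 16) scale. Each gene was represented by its brightest single-gene probe set and kept if above the 40th percentile on 3 arrays. limma 3.58.1 in R 4.3.3 was fitted once over 11 arrays with a mean per group, and p-values (two-sided) were adjusted over 13710 genes. The number of arrays limits the precision. The fit was tested on simulated data.

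Members and lists were chosen with earlier results of these data known. The 2 members of smallest F-test p in each role, and those with probe sets of opposite sign, were named with values, and the other members more briefly. Alternatives covered normalization, pseudocount, filter, probe set choice, array weights, the actin ratio, the replicate number and each array left out. Same-numbered vehicle and 24 h arrays deviated together over all genes (r = 0.25, 0.13 and 0.21), and arrays of different number reached r = 0.21 too. For same-numbered vehicle and 6 h arrays r was −0.12 and −0.074, and for 6 h and 24 h arrays it was −0.064, −0.35 and 0.17. With so few arrays per group, these values cannot settle whether the numbers mark pairs. Differences are from the unblocked fit.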

Additional observations from a re-analysis of the deposited data

Results flagged for a closer look

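Among the levels of the 36 members in the 4 arrays of each treated group (72 groups of values), 3 had 1 array far from the others, and chance gives about 1 in 20. Pa2g4, a ribosome-binding protein, stood at 10.64 on 24 h replicate 4 against 9.60 to 9.75 on the other 24 h arrays, a gap of 0.861 of the range. Nop56, the box C/D core protein, stood at 8.17 on 6 h replicate 5 against 8.97 to 9.13, a gap of 0.832 of the range, while its other probe set read 8.84 on that array, within its range of 8.79 to 9.11 at 6 h. Nop16, a large subunit factor, stood at 6.73 on 6 h replicate 5 against 7.49 to 7.61, a gap of 0.860 of the range.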

How the results depend on the processing

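With no array left out, 0 members were called in the 3 comparisons under the pseudocounts, filters, probe set choices, variance trend, block and actin settings. These settings called at most 0.0989% of all genes in a comparison. Array weights called Npm1, Ddx21, Nop56, Nop58, Wdr43, Rrs1 and Cad higher and Rrp9 lower at 6 h, where 18.2% of all genes were called, and Ddx21 and Rrs1 lower between 24 h and 6 h (3.09% of all genes) and turned the 24 h member median to −0.026; the weights were lowest for 24 h replicate 4 (0.270) and 6 h replicate 5 (0.299) and highest for vehicle replicate 3 (4.85). The intensities as deposited called Rrp9 at 6 h, where 6.24% of all genes were called. The values below reversed or moved, and the cause was not tested. A member median was listed as moved only from a shift of 0.264, the largest group SD of the member mean. Smaller shifts of a median are not listed. With the actin ratio as a covariate, values were Srm at 0.22, Polr1b at −0.29 and Polr1a at 0.32 at 6 h, then Rrs1 at −0.038, Gnl3 at −0.051 and Polr1a at 0.017 at 24 h, then 6 members positive and Rrp9 at −0.058 between 24 h and 6 h. With array weights, values were 8 members called and Polr1a at 0.21 at 6 h, then 15 members positive, Nop56 at −0.022, Rrs1 at −0.15, Gnl3 at −0.19, Odc1 at −0.15, Ddx21 at −0.040, Nolc1 at −0.025 and Ncl at −0.093 at 24 h, then 2 members called, 4 members positive, Gar1 at −0.036 and Polr1b at −0.22 between 24 h and 6 h. On the intensities as deposited, values were 1 member called, 0 members positive and a member median of −0.54 at 6 h, then 1 member positive and a member median of −0.60 at 24 h, then 17 members positive between 24 h and 6 h. Relative to the median gene on those intensities, values were Gar1 at −0.036 and Polr1a at 0.056 at 6 h, then Rrs1 at −0.11, Gnl3 at −0.10, Ddx21 at −0.026 and Polr1a at 0.016 at 24 h, then Srm at 0.019 between 24 h and 6 h. With cyclic loess, values were Rrs1 at −0.0052 at 24 h, then Srm at 0.021 between 24 h and 6 h. With the mean of probe sets, values were Nolc1 at −0.033 and Wdr12 at 0.075 at 6 h, then Rrs1 at −0.12 and Pes1 at −0.44 at 24 h, then Odc1 at 0.12 and Nolc1 at 0.16 between 24 h and 6 h. With median scaling, values were 6 members positive and a member median of −0.18 at 24 h. Relative to the median gene there, values were Rrs1 at −0.075 and Gnl3 at −0.062 at 24 h, then Srm at 0.013 and Polr1a at 0.092 between 24 h and 6 h. With a pseudocount of 4, values were Polr1a at 0.067 between 24 h and 6 h. With a pseudocount of 64, values were Rrp9 at −0.0097 between 24 h and 6 h. With the replicate block, values were Srm at 0.070 and Polr1a at 0.41 at 6 h, then Rrs1 at −0.016 and Gnl3 at −0.027 at 24 h, then 4 members positive and Rrp9 at −0.13 between 24 h and 6 h. Without the arrays of low actin ratio, values were Polr1a at 0.35 at 6 h, then Rrs1 at −0.056 and Gnl3 at −0.085 at 24 h, then 5 members positive, Gar1 at −0.045 and Polr1b at −0.23 between 24 h and 6 h. Without probe sets marked as possibly cross-hybridising, values were Rrs1 at −0.12 at 6 h, then Rrs1 at −0.25 and Odc1 at −0.087 at 24 h. Leaving out 1 array at a time, ranges that crossed 0 or moved were at 6 h Gar1 from −0.0073 to 0.20, Odc1 from −0.041 to 0.40, Pes1 from −0.19 to 0.10, Polr1a from −0.52 to 0.23 and Polr1b from −0.043 to 0.25, then at 24 h Gnl3 from −0.085 to 0.15, Ncl from −0.036 to 0.25, Nolc1 from −0.088 to 0.32, Odc1 from −0.073 to 0.37, Polr1a from −0.69 to 0.11 and Rrs1 from −0.079 to 0.097, then between 24 h and 6 h Ncl from −0.29 to 0.040, Nop58 from −0.23 to 0.15, Odc1 from −0.15 to 0.053, Polr1a from −0.54 to 0.39, Polr1b from −0.028 to 0.63, Rrp9 from −0.19 to 0.56, Srm from −0.40 to 0.20 and the count of positive members from 5 to 18. The replicate block changed no call. The chosen probe sets of Rrp9 and Polr1a reach the floor of the scale on 6 h replicate 5. Leaving out 1 array called 0 members and at most 0.168% of all genes.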
